A study of Homo sapiens with 18 samples.

Results

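Ribosomal RNA appears in the deposited repeat tables as copies of 3 repeat names, LSU-rRNA_Hsa (the large subunit, 28S rRNA), SSU-rRNA_Hsa (the small subunit, 18S rRNA) and 5S. Every row with one of these names was taken as a member, whatever its count. The 5-FU table holds 756 such copies among 2404193 rows, of which 198 are LSU-rRNA_Hsa, 29 are SSU-rRNA_Hsa and 529 are 5S. A count in at least 1 library was recorded for 495 of the 756. The Nutlin table holds 573 copies among 1996647 rows (154, 23 and 396), and 279 of them have a count. Each row gives the stretch of the repeat consensus that the copy matches, followed by its chromosome, start and end on hg19, the build in the submitters' processing notes.

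Ribosomes are built around rRNA. RNA polymerase I makes a long precursor in the nucleolus that is cut and trimmed, with the help of small nucleolar RNAs, into 18S, 5.8S and 28S rRNA, while RNA polymerase III makes 5S rRNA from a separate tandem array of genes. The genes of the long precursor sit in arrays that the older genome builds do not assemble, so most annotated 18S and 28S copies are old fragments scattered over the chromosomes. Total RNA kits usually remove rRNA before sequencing, and what is counted is then a residue. 5-Fluorouracil (5-FU) is a pyrimidine analogue that enters RNA and is known to disturb late steps of rRNA processing. Free 5S rRNA bound to the proteins RPL5 and RPL11 holds back MDM2, the ligase that degrades p53. Nutlin is a small molecule that keeps MDM2 from binding p53.

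No genome of the hg19 build was used here, so copies are given by their coordinates and by the consensus bases they match, and no copy is placed in or outside a gene.

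All RNA came from the established human lung fibroblast line IMR90, as 18 samples in 9 groups of 2. Nutlin (5 µM) acted for 6 h, and 5-FU (375 µM) acted for 6, 12 or 24 h. DMSO, the solvent, was given alone for the same duration to a control group of each drug group. The untreated cells received no solvent and had fresh medium 12 h before extraction. The labels do not say whether the 2 samples of a group came from separate cultures, so p-values measure only the spread between these samples. The tables list no genes, so the fibroblast identity was not checked against markers. In bulk RNA, fewer cells with an RNA and less of that RNA per cell cannot be told apart.

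Libraries of the 5-FU table held 2412334 to 6290320 counts. Those of the Nutlin table held 9109885 to 11880265, of which 7SL RNA took 61.7 to 67.9%. In the Nutlin table the 2 columns of untreated cells hold identical values, so they form a group of 1 library. The rRNA share was 7.58 to 21.1% with the 5-FU table's libraries and 3.81 to 4.76% with those of the Nutlin table. Of the counts outside 7SL RNA it was 8.47 to 22.1% and 11.7 to 13.2%. Replicates differed in the share of all counts. The DMSO 6 h libraries had 21.1 and 11.3%, and the DMSO 24 h libraries had 9.42 and 16.6%. The pair of DMSO 12 h libraries stood apart at many rRNA copies. Of 65 copies tested, both lay below all 12 other libraries at 19 and above all of them at 7. The same count was not made over all copies, so whether this is particular to rRNA was not tested. These libraries also had the fewest counts of the 5-FU table (2412334 and 2540089) and its largest scaling factors (TMM, 1.32 and 1.23). The 12 h results are therefore given against these libraries and, for the values named, a second time against the DMSO libraries of 6 h and 24 h. The same untreated sample had different counts in the 2 tables, with an LSU-rRNA_Hsa total of 283443 beside the 5-FU libraries and 413406 beside the Nutlin libraries. In the same order, its counts in all were 3481300 and 9669973. Its 7SL share was 5.33 and 61.7%, and its rRNA share was 9.46 and 4.76%. Counts are therefore compared only within a table.

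LSU-rRNA_Hsa held most rRNA counts, 6743584 in the 5-FU table against 869282 for SSU-rRNA_Hsa and 7669 for 5S. Counts were concentrated in few copies. Of the 198 LSU copies, 17 held over 1% each and 96.7% together, and these 17 span 81.0% of the 5035-base consensus. No LSU copy covers 90% or more of the consensus. The most counted copy, chr11:85195012-85195307, matches consensus bases 254 to 576, near the 5′ end, and held 16.1% of the LSU counts. The next, chr12:127650453-127650987, matches the 3′ end (4611 to 5034) and held 15.0%. The third, chr17:33478115-33478275, matches the first 158 bases and held 12.0%. A second fragment lies directly after it at chr17:33478276-33478372 (bases 120 to 213). In the Nutlin table the chr11 copy alone held 43.8% of the LSU counts, followed by the chr12 copy with 8.51% and chr5:71146745-71146942 (bases 2560 to 2757) with 7.85%.

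**Figure D1:**
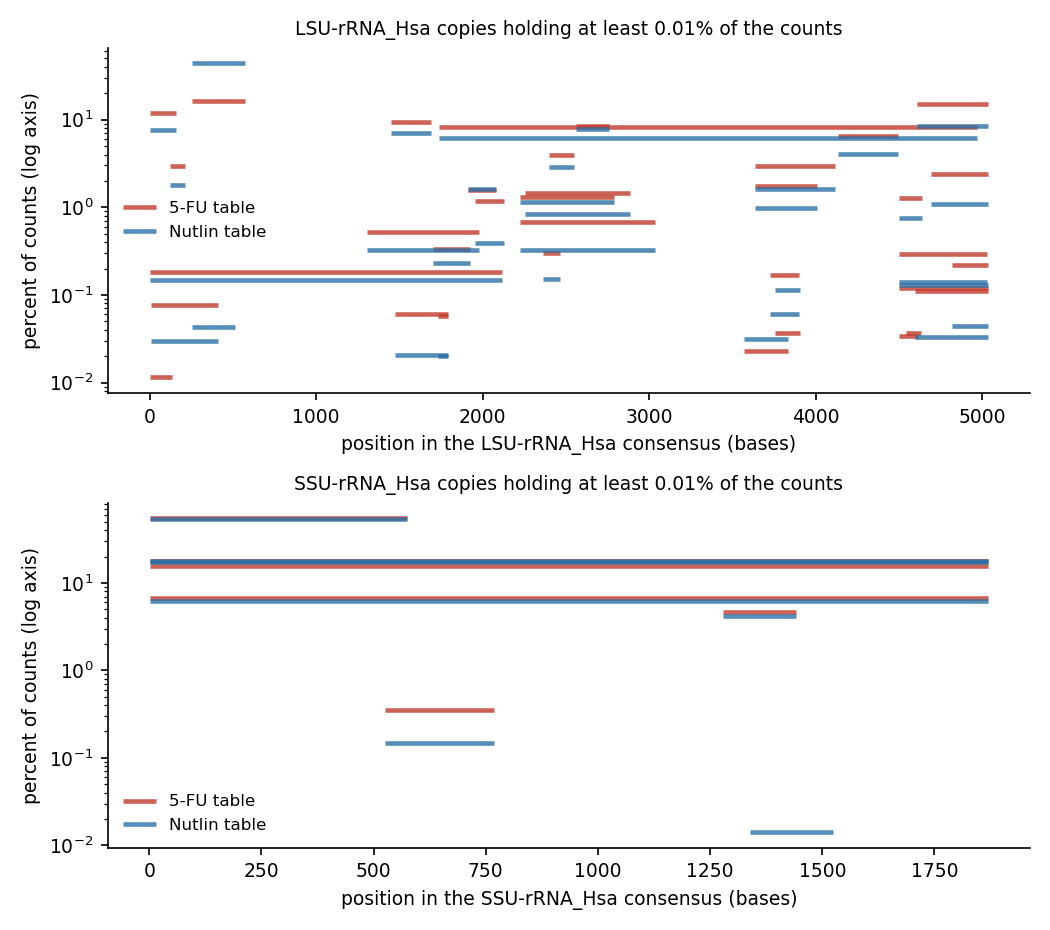
Each bar is a copy drawn over the stretch of the LSU-rRNA_Hsa (top) or SSU-rRNA_Hsa (bottom) consensus that it matches, in bases, and its height is its percent of all counts of that name in the table, on a log axis. Copies with at least 0.01% are drawn. The LSU counts lie on separate fragments along the consensus, with 43.8% on 1 fragment in the Nutlin table, while SSU counts lie on a 5′ fragment and on full-length copies.

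SSU-rRNA_Hsa counts had a different layout. The fragment chr21:9827005-9827578, which matches consensus bases 1 to 574 of 1869, held 54.9% of the SSU counts of the 5-FU libraries and 54.5% of those of the Nutlin libraries. The 3 full-length SSU copies together held 40.1 and 41.1%. The larger of them are chr16:33962497-33964361 with 17.7% and chr2:133011920-133013768 with 15.7% in the 5-FU table. Per base of the copy, the chr21 fragment had 831 counts over all libraries of the 5-FU table and the chr16 copy had 82.3.

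5S counts were sparse. Of 529 copies in the 5-FU table, 221 were at 0 in every library and 14 reached 100 counts. The 107 full-length copies held 7.24% of the 5S counts, and most counts fell on copies that match only the first part of the 121-base consensus. The tandem gene cluster at chr1:228743494-228783779, with 19 full-length copies spaced by a median of 2241 bases, drew 215 counts in all, on 2 of the 19. Of these 215, 196 fell on chr1:228763893-228764013 in a single library, 5-FU 12 h replicate 2, and every other library had 0 there. The most counted 5S copy, chr12:104519014-104519103 (bases 1 to 90), was likewise a single-library copy: DMSO 24 h replicate 1 had 1672 of its 1682 counts, and no other library exceeded 3. The second, chr6:126301022-126301080 (bases 1 to 60), had 769 counts and was present in all libraries. The third was chr11:124506355-124506444 with 650. In the Nutlin table the chr6 copy led with 188 counts.

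The untreated sample listed in both tables gives counts of 1 RNA sample from both. Among the 30 LSU copies with at least 100 counts in the 5-FU table, 21 had Nutlin-table counts within 10%, and the median ratio was 1.02. The ratios ran from 0.495 to 3.26. The highest was that of the chr11:85195012 copy, which had 56136 counts with the 5-FU libraries and 183098 with the Nutlin libraries, and no other of the 30 exceeded 1.5. SSU totals were 45665 and 46617, and 5S totals were 316 and 312.

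Summed over all copies and scaled for depth (CPM, with TMM factors from all copies), LSU-rRNA_Hsa in DMSO 6 h libraries was 201014 and 94338, and in 5-FU 6 h libraries 161987 and 160237. The 5-FU values lay between the DMSO values, and the group means of 161112 ± 1237 and 147676 ± 75432 (SD, n = 2) differed by a log2 fold change of 0.13 ± 0.31 (SE; edgeR, adjusted p = 0.88). SSU-rRNA_Hsa was 23384 and 12936 with DMSO and 16864 and 18023 with 5-FU, again overlapping, with a log2 fold change of -0.06 (edgeR, adjusted p = 0.93). 5S was 72.8 and 96.1 CPM with DMSO and 91.6 and 97.8 with 5-FU, a log2 fold change of 0.17 (edgeR, adjusted p = 0.91). None of the 1074 repeat names tested was called at 6 h, at 0%, although 126 had an unadjusted p under 0.05. Called means an adjusted p under 0.05 throughout.

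At 12 h both long rRNAs were higher with 5-FU than with the DMSO of that time. LSU-rRNA_Hsa was 52476 and 64565 CPM with DMSO and 119425 and 103306 with 5-FU. The groups did not overlap, and the name rose by a log2 fold change of 0.93 ± 0.31 (SE; edgeR, adjusted p = 0.033). SSU-rRNA_Hsa was 4940 and 6370 with DMSO and 12397 and 12161 with 5-FU, also without overlap, and rose by 1.12 ± 0.25 (edgeR, adjusted p = 0.0037). 5S was 71.1 and 71.2 CPM with DMSO and 107 and 153 with 5-FU, a log2 fold change of 0.87 ± 0.52 that was not called (edgeR, adjusted p = 0.22). In the same comparison 33.9% of all names were called, 28.6% higher, with a median log2 fold change of 0.17 over all names. With library sizes alone that median was -0.40, with 61 names called higher and 436 lower, in place of 307 and 57. With the DMSO libraries of 6 h and 24 h as control, the 3 fold changes turned to -0.18, -0.42 and -0.13, and none was called (edgeR, adjusted p = 0.61, 0.14 and 0.83), while 42.8% of all names were. The LSU call was also lost when any of the 4 libraries was left out, with adjusted p from 0.075 to 0.21, and with library sizes alone (log2 fold change 0.36, adjusted p = 0.23). SSU was still called with library sizes alone, at 0.55 (adjusted p = 0.034). The SSU call was lost without DMSO 12 h replicate 1 (adjusted p = 0.051).

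Untreated libraries are a second reference for these levels. They had 75476 and 64951 CPM of LSU-rRNA_Hsa, 12160 and 9114 of SSU-rRNA_Hsa and 84.1 and 102 of 5S. The DMSO 12 h libraries were below both untreated libraries in all 3 names. The 5-FU 12 h libraries were above both in all 3 names, in SSU by as little as 12161 against 12160 CPM. As percent of the library, without TMM factors, these orders held only in part. DMSO 12 h was below both untreated libraries in SSU alone (0.651 and 0.785% against 1.31 and 1.01%). 5-FU 12 h was above both in LSU alone (10.3 and 8.82% against 8.14 and 7.17%). These levels were not tested against each other.

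At 24 h the LSU and SSU groups overlapped. LSU-rRNA_Hsa was 76638 and 138785 CPM with DMSO and 113160 and 81120 with 5-FU, a log2 fold change of -0.15 ± 0.31 (edgeR, adjusted p = 0.79). SSU-rRNA_Hsa was 11515 and 18101 with DMSO and 17737 and 15268 with 5-FU, a log2 fold change of 0.16 ± 0.25 (edgeR, adjusted p = 0.73). By comparison, 12.3% of all names were called at 24 h, 119 higher and 13 lower (29 and 18 with library sizes alone). 5S was 406 and 78.8 CPM with DMSO and 150 and 121 with 5-FU. The high value is the library with 1672 counts on the chr12 copy, and the summed 5S had a log2 fold change of -0.84 ± 0.48 (edgeR, adjusted p = 0.29). Without the single-library copies, a choice made after the values were seen, 5S was higher with 5-FU by 0.70 (edgeR, adjusted p = 0.0072).

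With Nutlin for 6 h both long rRNAs were slightly higher. LSU-rRNA_Hsa was 37972 and 34815 CPM with DMSO and 44863 and 39422 with Nutlin, and rose by 0.21 ± 0.07 (edgeR, adjusted p = 0.025). SSU-rRNA_Hsa was 3906 and 3564 with DMSO and 5041 and 4363 with Nutlin, and rose by 0.33 ± 0.07 (edgeR, adjusted p = 0.00073). The untreated library had 35178 of LSU and 3967 of SSU. 5S was 31.0 and 29.5 with DMSO and 29.2 and 28.3 with Nutlin, a log2 fold change of -0.07 (edgeR, adjusted p = 0.81). Among all 1052 names 12.9% were called, 9.6% higher, with 101 higher and 35 lower (44 and 188 with library sizes alone). With DESeq2 neither long rRNA was called (adjusted p = 0.25 for LSU and 0.070 for SSU), and with library sizes alone the fold changes were 0.035 for LSU and 0.16 for SSU (edgeR, adjusted p = 0.66 and 0.045). Both calls were lost without DMSO replicate 2 (adjusted p = 0.70 and 0.35) or without Nutlin replicate 1 (adjusted p = 0.34 and 0.15), and the LSU call also without Nutlin replicate 2 (adjusted p = 0.063).

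**Figure D2:**
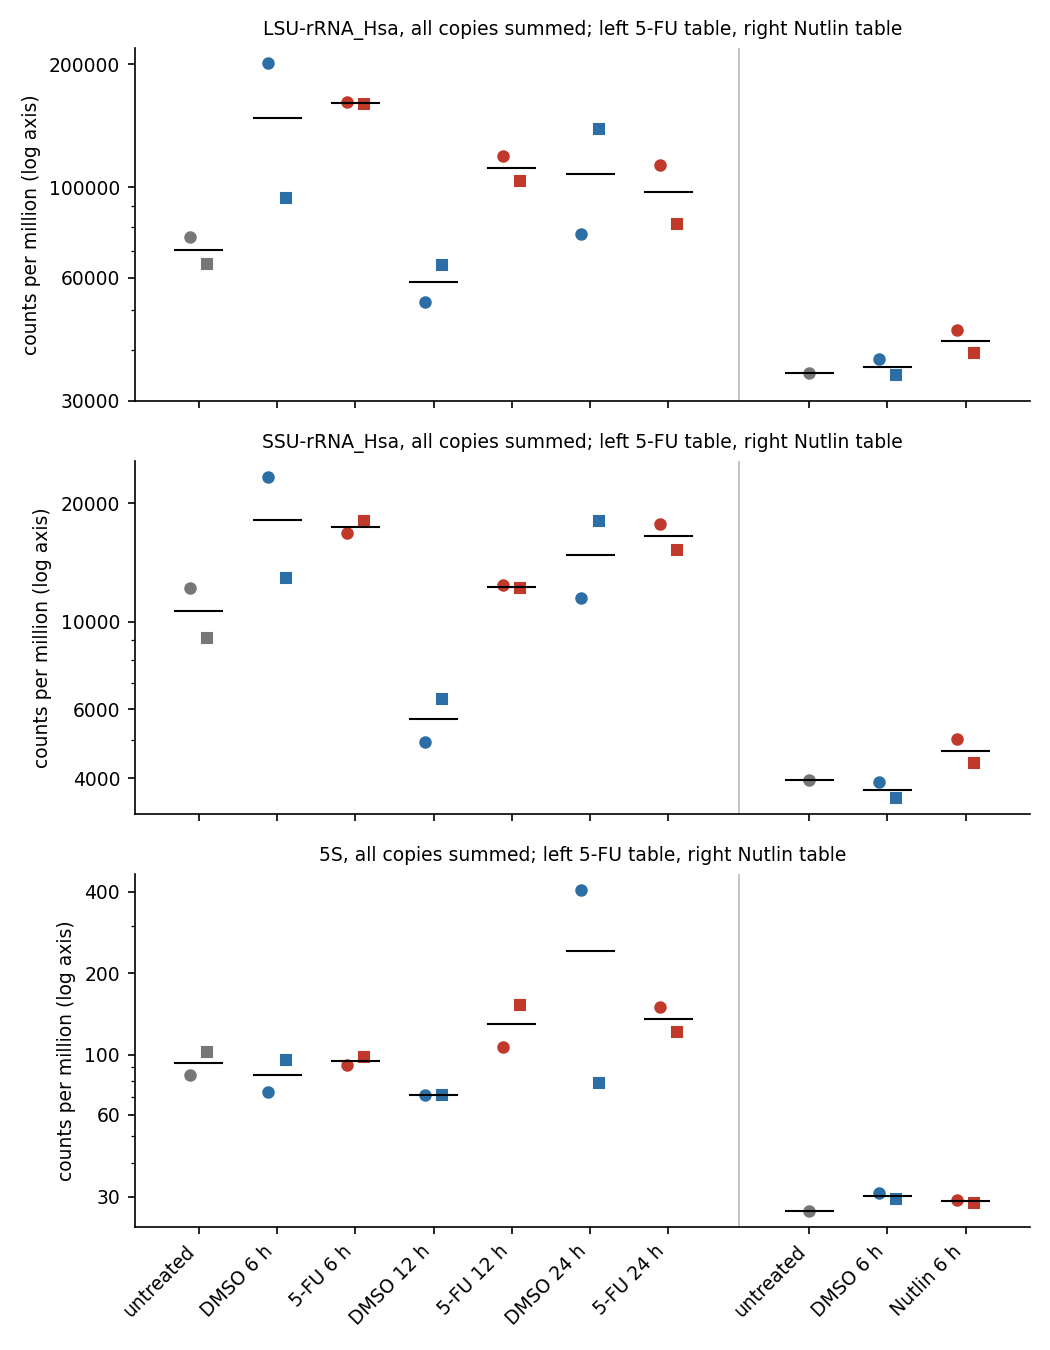
CPM of the 3 rRNA names, all copies summed, in each library, on log axes. Circles are replicate 1, squares replicate 2 and bars group means, with grey for untreated, blue for DMSO and red for drug. The DMSO 12 h libraries have the lowest values of the 5-FU table for SSU-rRNA_Hsa (4940 and 6370), and 1 DMSO 24 h library stands out for 5S (406).

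As a share of all counts, rRNA did not differ detectably between 5-FU and DMSO over the 3 times. The mean log2 difference was 0.04, with p = 0.84 in a two-sided exact permutation test over 216 arrangements within time points. The differences at 6, 12 and 24 h were 0.03, 0.38 and -0.30. With DMSO 6 h and 24 h as control, the 12 h difference turned to -0.39, and the 5-FU 12 h shares of 11.4 and 9.87% lay within the range of those 4 libraries (9.42 to 21.1%). The direction changed to -0.14 without the 12 h time point (exact permutation p = 0.67). It also turned without DMSO 24 h replicate 1 (-0.10) and without DMSO 6 h replicate 2 (-0.11). With 2 libraries against 2, an exact permutation test at a single time cannot reach the threshold.

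The ratio of LSU to SSU counts is a measure within each library that scaling leaves as it is. It was 8.60 and 7.29 with DMSO 6 h and 9.61 and 8.89 with 5-FU 6 h. At 12 h it was 10.6 and 10.1 with DMSO and 9.63 and 8.50 with 5-FU, and at 24 h it was 6.66 and 7.67 with DMSO and 6.38 and 5.31 with 5-FU. Both 5-FU libraries were above both DMSO libraries of the same time at 6 h and below them at 12 and 24 h. The 12 h direction turned with the other control: against DMSO 6 h and 24 h (6.66 to 8.60) the mean log2 difference was 0.27 in place of -0.20. It did not turn when the most counted copy of each name was left out (-0.34 in place of -0.48). Without the most counted copy of each name the 6 h groups overlapped, at 19.6 and 13.6 with DMSO and 19.3 and 18.9 with 5-FU. Over the 3 times the mean log2 difference was -0.09 (two-sided exact permutation p = 0.42, 216 arrangements). With Nutlin the ratio was 8.90 and 9.04, below the 9.72 and 9.77 of its DMSO libraries, and the untreated library of that table had 8.87. The Nutlin and DMSO groups overlapped without the most counted copy of each name (10.5 and 12.0 against 12.1 and 10.9).

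Within LSU-rRNA_Hsa, the 67 copies that start at consensus base 4400 or later stand for the 3′ end. Their share of the LSU counts was 14.2 and 14.7% in untreated libraries. At 12 h it was 15.9 and 15.7% with DMSO and 23.0 and 24.2% with 5-FU, with no overlap. These 5-FU values also lay above all DMSO 6 h and 24 h libraries (17.4 to 22.3%). At 24 h it was 22.3 and 17.4% with DMSO and 24.4 and 24.0% with 5-FU, so the 5-FU values were again the higher ones. At 6 h the ranges overlapped, with 17.7 and 20.3% with DMSO against 17.9 and 18.7% with 5-FU. The bounds of this stretch were chosen with the counts known, and no test was made.

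**Figure D3:**
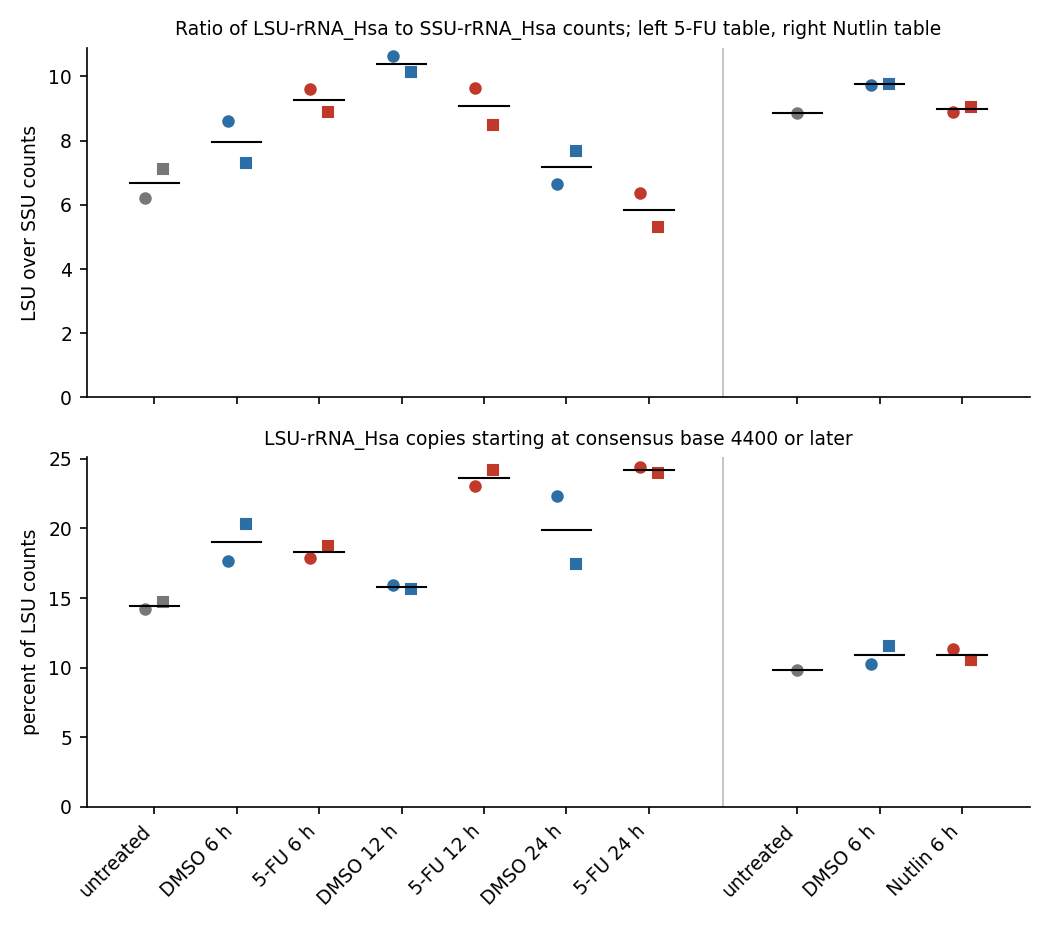
Top, ratio of LSU-rRNA_Hsa to SSU-rRNA_Hsa counts in each library. Bottom, percent of LSU counts on copies that start at consensus base 4400 or later. Circles are replicate 1, squares replicate 2, bars group means, with grey for untreated, blue for DMSO and red for drug. The ratio is highest in the DMSO 12 h libraries (10.6 and 10.1), and the 3′ share is 23.0% or more in all 5-FU 12 h and 24 h libraries.

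Single copies were tested where they passed a filter on low counts, which left 65 of the 756 copies in the 5-FU table (44 LSU, 6 SSU and 15 5S) and 53 of 573 in the Nutlin table (37, 6 and 10). At 6 h of 5-FU no rRNA copy was called, against 0.121% of all 63602 copies tested. By unadjusted p under 0.05 there were 4 rRNA copies. The median log2 fold change was 0.08 over the rRNA copies and 0.12 over all copies.

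At 12 h, 24 rRNA copies were called, 16 higher and 8 lower, while 11.2% of all copies tested were called, 8.17% higher and 3% lower. With library sizes alone 12 rRNA copies were higher and 11 lower, while over all copies 2056 were higher and 4703 lower. The 24 calls were 9 LSU copies higher and 8 lower, 5 SSU copies higher and 2 5S copies higher. Of the 16 called higher, 13 were copies where both DMSO 12 h libraries lay below the other 12 libraries. Of the 8 called lower, 7 were copies where both lay above them. The same counts were not made over all copies. With DMSO 6 h and 24 h as control, 11 rRNA copies were called, 6 higher and 5 lower. Of all copies 14.4% were called in that fit, 8.5% higher and 5.89% lower. Only 5 of the 24 were called in the same direction as before. The LSU copy chr1:108113072-108113633 (bases 2226 to 2792) was called in the opposite direction. Its log2 fold change was 2.32 against DMSO 12 h and -1.29 against DMSO 6 h and 24 h (edgeR, adjusted p = 0.00042 and 0.012).

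Copies that match parts of the 3′ end of the LSU consensus, not always the same bases, moved in opposite directions at 12 h. The copy chr4:76807176-76807697 (bases 4501 to 5033) had 12 and 9 counts with DMSO and 908 and 1024 with 5-FU, and rose by a log2 fold change of 6.39 ± 0.56 (edgeR, adjusted p = 3.2e-07). The main 3′ copy, chr12:127650453-127650987, had 6899 and 8588 counts with DMSO and 71636 and 65987 with 5-FU, and rose by 3.03 ± 0.35 (edgeR, adjusted p = 8.5e-06). The opposite was seen at chr12:34372608-34372741 (bases 4501 to 4616), which had 920 and 1251 counts with DMSO and 8 and 12 with 5-FU, and fell by 6.88 (edgeR, adjusted p = 2.7e-11). Likewise chr18:77772847-77773065 (bases 4819 to 5033) had 4788 and 5262 counts with DMSO and 316 and 434 with 5-FU, and fell by 3.87 (edgeR, adjusted p = 5.6e-09). Between these extremes, chr21:15456973 (bases 4501 to 5028) had 953 and 1820 counts with DMSO and 1583 and 1642 with 5-FU, a log2 fold change of 0.09 (edgeR, adjusted p = 0.91).

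The DMSO 12 h libraries stood apart from the other libraries at these copies. In CPM, chr12:34372608 was 289 and 400 in the DMSO 12 h libraries and 1.07 to 5.38 in the other 12, and chr18:77772847 was 1506 to 1681 against 36.3 to 124. In the other direction, the chr12:127650453 copy was 2169 to 2743 in the DMSO 12 h libraries and 7684 to 28283 in the others. Against DMSO 6 h and 24 h the fold changes were 0.28 and 0.40 for the chr12:34372608 and chr18 copies and 0.10 for chr12:127650453, none of them called (edgeR, adjusted p = 0.64, 0.17 and 0.84). The chr21:15456973 copy was at 0.59, not called (edgeR, adjusted p = 0.22). The chr4 copy kept a call, at 1.14 (edgeR, adjusted p = 0.024). So did chr17:19355539-19356096 (bases 2257 to 2887), which had 254 and 401 counts with DMSO 12 h and 10237 and 12902 with 5-FU 12 h. Its log2 fold change was 5.01 against its own DMSO (edgeR, adjusted p = 6.6e-07) and 1.11 against the other DMSO libraries (edgeR, adjusted p = 0.027).

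**Figure D4:**
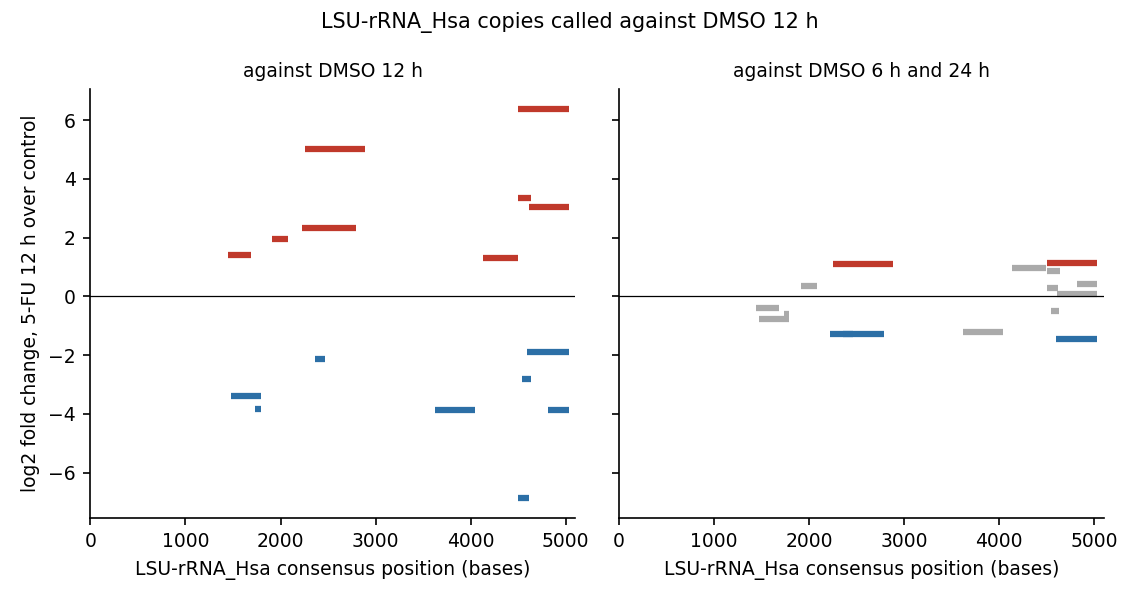
Log2 fold change of 5-FU 12 h over control for LSU-rRNA_Hsa copies called against DMSO 12 h, drawn over the consensus stretch each matches, in bases. Red and blue bars are called higher and lower in that panel, grey bars are not called, and the copy with no count in either DMSO 12 h library is left out. With DMSO 12 h as control (left) the values run from -6.88 to 6.39, and with DMSO 6 h and 24 h (right) from -1.46 to 1.14.

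One LSU copy had no count in either DMSO 12 h library, chr17:22023345-22023500 (bases 3753 to 3907), and its 5-FU libraries had 709 and 17 counts. Taken over both libraries, 5-FU was at least 112-fold higher than the floor of 3 counts, but the 5-FU replicates themselves were far apart. Without drug or solvent, untreated replicate 1 had 666 counts on this copy. The copy was also called against DMSO 6 h and 24 h, at 5.08 ± 0.95 (edgeR, adjusted p = 0.0013). Of the 5S copies called at 12 h, the full-length chr9:66458142-66458262 had 0 and 0 counts with DMSO and 10 and 10 with 5-FU, at least 3.06-fold higher than the floor of 3 counts. The other, chr5:64014706-64014745 (bases 3 to 42), had 9 and 12 counts with DMSO and 36 and 33 with 5-FU, and rose by 1.58 ± 0.44 (edgeR, adjusted p = 0.023). Neither 5S copy was called against DMSO of 6 h and 24 h (adjusted p = 0.39 and 0.085).

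Among the SSU copies at 12 h, the full-length chr2:133011920 copy had 2791 and 3715 counts with DMSO and 9974 and 12236 with 5-FU, and rose by 1.64 ± 0.29 (edgeR, adjusted p = 0.0010). The full-length chr16:33962497 copy had 3279 and 4507 with DMSO and 9728 and 9858 with 5-FU, and rose by 1.20 ± 0.31 (edgeR, adjusted p = 0.016). The chr21 fragment with most of the SSU counts had 8052 and 9651 with DMSO and 15635 and 13124 with 5-FU, a log2 fold change of 0.58 ± 0.34 that was not called (edgeR, adjusted p = 0.29). Against DMSO 6 h and 24 h the full-length copies had fold changes of 0.54 and 0.01 (chr2 and chr16), neither called (edgeR, adjusted p = 0.14 and 0.99). The chr21:9827005 fragment turned to -1.21 ± 0.31 with that control and was called lower (edgeR, adjusted p = 0.012).

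At 24 h, 4 of the 65 rRNA copies were called, 3 higher and 1 lower, against 4.2% of all copies (2.64% higher and 1.55% lower). With library sizes alone 1 was higher and 3 lower. The clearest was the 5S copy chr11:124506355-124506444 (bases 1 to 90), with 30 and 20 counts with DMSO and 192 and 184 with 5-FU. The groups were far apart, and it rose by 3.07 ± 0.48 (edgeR, adjusted p = 0.00038). At 6 h the same copy had 15 and 53 counts with DMSO and 13 and 41 with 5-FU, and at 12 h it had 9 and 14 against 32 and 23, not called at either time (edgeR, adjusted p = 0.94 and 0.20). Untreated replicate 1 had 20 counts on a second called 5S copy, chr5:34802385-34802473. The same sample had 2 there beside the Nutlin libraries. This copy had 0 and 1 counts with DMSO and 2 and 87 with 5-FU. Its call (edgeR, adjusted p = 0.038) rests on 5-FU replicate 2, and it was lost without either DMSO library (adjusted p = 0.24 and 0.18). The LSU copy chr4:70296582-70296753 (bases 1956 to 2126) had 4024 and 18982 counts with DMSO and 2839 and 4431 with 5-FU. It fell by 1.50 (edgeR, adjusted p = 0.046), but by only 0.13 without DMSO replicate 2 (adjusted p = 0.92). The remaining call was the full-length SSU copy chrY:10034865-10036712, with 3929 and 5068 counts with DMSO and 4908 and 10676 with 5-FU. The treatment of reads that match several copies is not given, so these counts need not come from that locus. The copy rose by 0.86 ± 0.23 (edgeR, adjusted p = 0.038). That call was lost with RLE size factors (adjusted p = 0.054), library sizes alone (0.082), the replicate block (0.056) and the 4 libraries alone (0.50). It was also lost without 5-FU replicate 2 (adjusted p = 0.083) and without either DMSO library (0.27 and 0.15).

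With Nutlin, 1 of 53 rRNA copies was called, while 4.7% of the 29405 copies tested were, 2.97% higher. It was the LSU copy chr2:159440392-159440797 (bases 4596 to 5034). The untreated library had 295 counts there, more than either Nutlin library. This copy had 39 and 36 counts with DMSO and 76 and 182 with Nutlin. It rose by 1.82 ± 0.40 (edgeR, adjusted p = 0.023), and by 0.85 without Nutlin replicate 2, where it was not called (adjusted p = 0.15). The median log2 fold change was 0.21 over the 53 copies and 0.00 over all copies (-0.17 over all copies with library sizes alone). The chr11:85195012 fragment had 159506 and 135758 counts with DMSO and 203235 and 146573 with Nutlin, a log2 fold change of 0.22 ± 0.10 (edgeR, adjusted p = 0.29). The same fragment was not called with 5-FU either, at 0.23, 0.36 and -0.26 for 6, 12 and 24 h (edgeR, adjusted p = 0.90, 0.56 and 0.79), or at -0.45 for 12 h against DMSO 6 h and 24 h (adjusted p = 0.35).

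Few rows beside well-counted rRNA copies had counts. Around the 28 rRNA copies of the 5-FU table with at least 1000 counts per library on average, 9 repeat rows within 5000 bases had more than 20 counts in all, and around the 24 such copies of the Nutlin table there was 1. That row was listed in both tables. It is a piece of MER45C, a DNA transposon, at chr16:33964922-33965030, 561 bases after the end of the full-length SSU copy of chromosome 16. It was singled out after its values were seen.

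The MER45C piece was lower with 5-FU at all 3 times. It had 336 and 228 counts with DMSO 6 h and 33 and 62 with 5-FU 6 h, and fell by 2.46 on the log2 scale (SE 0.33; edgeR, adjusted p = 0.00078). At 12 h it had 166 and 89 counts with DMSO and 7 and 5 with 5-FU, and fell by 4.51 (SE 0.44; edgeR, adjusted p = 1.0e-06), or by 4.62 against DMSO 6 h and 24 h. At 24 h it had 179 and 195 counts with DMSO and 32 and 77 with 5-FU, and fell by 1.71 (SE 0.32; edgeR, adjusted p = 0.0027). The groups never overlapped. Of all copies tested, 0.00943% were called lower at 6 h and 1.55% at 24 h. Its untreated libraries had 157 and 156 counts. With Nutlin it had 144 and 129 counts against 158 and 118 with DMSO, a log2 fold change of -0.03 (edgeR, adjusted p = 0.97).

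The SSU copy next to it was not called at 6 h or 24 h. At 6 h the chr16 SSU copy had 18369 and 10872 counts with DMSO and 11684 and 13238 with 5-FU, a log2 fold change of -0.12 (edgeR, adjusted p = 0.95). At 24 h it had 11120 and 19540 with DMSO and 14691 and 14258 with 5-FU, a log2 fold change of 0.12 (edgeR, adjusted p = 0.91). The row names carry no strand, and whether the MER45C counts belong to a transcript that includes the SSU copy was not tested.

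**Figure D5:**
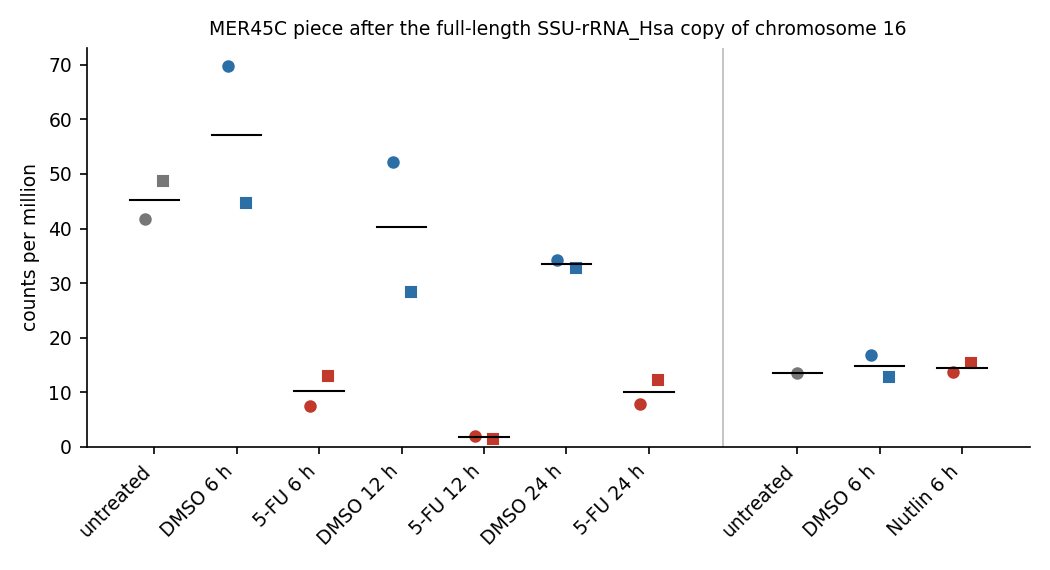
CPM of the MER45C piece beside the full-length SSU-rRNA_Hsa copy of chromosome 16 in each library. Left of the line is the 5-FU table and right of it the Nutlin table. Circles are replicate 1, squares replicate 2 and bars group means, with grey for untreated, blue for DMSO and red for drug. All 5-FU libraries lie below the DMSO and untreated libraries of that table, which are between 28.4 and 69.7.

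Other RNAs of the same pathways give a frame for these values. Of 6 small nucleolar RNA names that act in rRNA processing, 0 were called at 6 h of 5-FU, 2 were called higher at 12 h and 4 at 24 h, and 0 with Nutlin. Over all names 28.6% were called higher at 12 h and 12.3% were called in either direction at 24 h. With library sizes alone 1 of the 6 was higher and 1 lower at 12 h, 1 was higher at 24 h, and 1 was lower with Nutlin. Their median log2 fold changes with 5-FU were 0.12, 0.42 and 0.73. U8, needed for 28S and 5.8S processing, rose by 1.07 at 12 h and 0.89 at 24 h (edgeR, adjusted p = 0.0011 and 0.0078). U3, needed for 18S processing, had -0.20 at 12 h (edgeR, adjusted p = 0.33) and rose by 0.69 at 24 h (edgeR, adjusted p = 0.010). U13 rose at both times, by 1.14 and 0.81 (edgeR, adjusted p = 0.00083 and 0.0078), and U17 rose at 24 h by 0.76 (edgeR, adjusted p = 0.014). Against DMSO 6 h and 24 h, 3 of the 6 were called higher at 12 h: U8 at 0.94, U17 at 0.92 and U3 at 0.39 (edgeR, adjusted p = 0.0010, 0.00066 and 0.027), while U13 was at 0.00 (adjusted p = 1.00). With library sizes alone U3 was called lower at 12 h, at -0.77 (edgeR, adjusted p = 7.7e-05), and U13 was the name called higher, at 0.57 (adjusted p = 0.041).

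A second list holds names taken as RNA polymerase III products, such as Y RNAs, 7SK and every tRNA name. It includes tRNA names marked (m), such as tRNA-Ser-TCA(m), whose polymerase was not checked. Of 63 such names, 0 were called at 6 h. At 12 h 35 rose and 0 fell, and at 24 h 20 rose and 0 fell, beside the same shares over all names. Their median log2 fold changes were 0.14, 1.31 and 0.66. Against DMSO 6 h and 24 h, 19 were higher and 1 lower at 12 h, with a median of 0.32. With library sizes alone 26 of 64 were higher and 4 lower at 12 h, and 12 higher and 0 lower at 24 h. BC200, a short RNA related to Alu, rose by 3.64 at 12 h and 2.68 at 24 h (edgeR, adjusted p = 1.6e-08 and 4.1e-07), and was at 2.22 for 12 h against DMSO 6 h and 24 h (adjusted p = 2.0e-07). With Nutlin 3 of 58 such names rose and 4 fell, beside 12.9% of all names called, and library sizes alone gave 1 and 9. The summed 5S was called at none of these times.

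Across the 14 columns of the 5-FU table, LSU-rRNA_Hsa and SSU-rRNA_Hsa varied together, with a Pearson correlation of log2 CPM of 0.87, and neither followed 5S (-0.12 and 0.10). Among 905 other names with at least 50 counts per library on average, the names most like LSU were HAL1b (0.89), SSU itself and MER53 (0.85). Those most like SSU were MLT1G1 (0.88), LSU and HAL1b (0.87), and those most like 5S were Ricksha_b (0.71), tRNA-Val-GTG (0.65) and LTR4 (0.64). The columns share drug groups, time points and depth, and these values are a description.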

How the data were processed

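The 2 tables hold whole-number counts for each repeat copy, not normalised, in the form the authors deposited. Per the submitters' processing notes, Trimmomatic 0.32, cutadapt 1.10, Bowtie2, edgeR, DESeq2 and hg19 were used. Their roles, the counting program, the repeat annotation and the treatment of reads that match several copies are not given in the sources used here, so the split of reads among similar rRNA copies is uncertain. Members and lists were chosen with earlier results of these data known. Named copies were the 3 most counted of each name, and up to 2 risen and 2 fallen copies per comparison with the smallest p among those called without overlap; other members were named after their values were seen.

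Tests used edgeR 4.0.16 in R 4.3.3 (glmQLFit, glmQLFTest) on counts as deposited, with TMM factors from all copies, filterByExpr, a mean per group and 1 fit per table. The lone untreated library of the Nutlin table counted as a group of 2 in the filter. Names were summed over copies. Benjamini-Hochberg adjustment ran over all copies or names tested, and a call is an adjusted p under 0.05. Standard errors are the fold change over the square root of F. DESeq2 1.42.0, other scalings, filters, left-out libraries and a replicate block were alternatives. The edgeR step was tested on simulated data. Shares and ratios used exact permutation. No counts were compared across tables except for the untreated sample present in both. Sequences of the members are not reported here.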

Additional observations from a re-analysis of the deposited data

Results flagged for a closer look

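The ratio of LSU-rRNA_Hsa to SSU-rRNA_Hsa counts differed from that of the DMSO libraries of the same time in opposite directions at 6 h and at 12 and 24 h of 5-FU. Both 5-FU libraries were above both DMSO libraries at 6 h (log2 difference 0.22) and below them at 12 h (-0.20) and at 24 h (-0.30). The effects at 6 h and 12 h are 0.42 apart on the log2 scale. With all copies the 12 h direction depends on the control, since the log2 difference was 0.27 against DMSO 6 h and 24 h. It did not turn without the most counted copy of each name, at -0.48 against DMSO 12 h and -0.34 against DMSO 6 h and 24 h. The ranges against the latter overlapped (10.9 to 13.2 with 5-FU, 12.2 to 19.6 with DMSO). Without the most counted copy of each name the 6 h groups overlapped (19.6 and 13.6 with DMSO, 19.3 and 18.9 with 5-FU). The difference between time points was not tested, and it was picked out because every library of each time moved the same way. No group has enough libraries to look for a single library far from the others.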

How the results depend on the processing

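The 12 h results depended most on the choice of control. With DMSO 6 h and 24 h as control, LSU, SSU and 5S went to -0.18, -0.42 and -0.13, the copies at chr12:34372608 and chr18:77772847 to 0.28 and 0.40, and 11 rRNA copies were called in place of 24. The cause was not tested. The summed LSU at 12 h lost its call with RLE size factors (0.64), library sizes alone (0.36), TMM factors from filtered copies (0.69), DESeq2 (0.93) and an adjusted p under 0.01 (0.93), and without single libraries it ran from 0.71 to 1.09. SSU at 12 h ran from 0.95 to 1.31. 5S at 12 h was called without its most counted copy (0.87), within the 4 libraries (0.72) and without single-library copies (0.52), and ran from 0.49 to 1.00 without single libraries. At 24 h, 5S turned to 0.70 without its most counted copy and 0.70 without single-library copies, and ran from -1.59 to 0.78 without single libraries. LSU and SSU at 24 h ran from -0.51 to 0.34 and from -0.13 to 0.52, and SSU was -0.081 with library sizes alone. At 6 h, LSU was -0.023 with RLE size factors and -0.020 with library sizes alone, 5S was -0.021 with library sizes alone, and without single libraries LSU, SSU and 5S ran from -0.32 to 0.77, from -0.42 to 0.43 and from -0.019 to 0.38. The rRNA share was -0.14 without the 12 h time point and ran from -0.11 to 0.19.

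For Nutlin, LSU lost its call with library sizes alone (0.035), DESeq2 (0.21) and an adjusted p under 0.01 (0.21), and ran from 0.12 to 0.30, while SSU lost it with DESeq2 (0.33) and ran from 0.22 to 0.43. The MER45C change with Nutlin, not called, ran from -0.21 to 0.14, with 0.14 without DMSO replicate 1 and 0.05 without Nutlin replicate 1. Its changes with 5-FU kept their direction and call in every alternative run. The number of rRNA copies called ran from 0 to 4 with Nutlin, 0 to 1 at 6 h, 17 to 20 at 12 h and 2 to 9 at 24 h without single libraries. With Nutlin it was 2 with library sizes alone, DESeq2 or the 4 libraries alone, and 0 without a filter or under 0.01. At 6 h it was 1 without a filter, and at 24 h it was 8 without a filter and 1 within the 4 libraries or under 0.01.

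Same-numbered replicates did not pair: the deviations of drug and DMSO libraries correlated at -0.01, 0.00, -0.02 and 0.14 over copies (Nutlin and 5-FU 6, 12 and 24 h). With the replicate block, 4 rRNA copies were called with Nutlin, 0, 23 and 1 with 5-FU at 6, 12 and 24 h, and LSU with Nutlin (0.21) was no longer called. The scaling from filtered copies or outside rRNA and the removal of single-library copies were chosen after seeing the data. Depth limits 5S most, with 7669 counts over all libraries of the 5-FU table.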
